A study of Rattus norvegicus with 3 samples.

Results

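The genes described here belong to the interferon response and to antigen presentation. They are 47 named genes together with every entry of the deposited table whose symbol starts with RT1-, the prefix of the rat major histocompatibility complex. Of the 47 named genes, 42 had an entry, and 25 RT1 genes were listed, which gave 67 of the 12771 entries. OAS2, BST2, TAP2, NLRC5 and CIITA had no entry under these symbols and are not described by value. The members were chosen by symbol from known functions, and the proposal was made with the SCI and No-SCI values of this same table known, so all differences between the groups are given as descriptions without a test.

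RNA came from the spinal cord of female Sprague Dawley rats 3 months old. No-SCI rats had a laminectomy at T9 alone, and SCI rats had the same laminectomy followed by a contusion of the cord. Tissue just rostral to the lesion was taken after 24 h and digested with a protease that works in the cold, the cells were pelleted, and the RNA left in the supernatant was sequenced. All No-SCI tissue therefore came from operated animals, and no unoperated cord was measured. By the labels, the No-SCI group has 2 libraries and the SCI group 1.

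The deposited table held 1 FPKM value per group for each gene (fragments counted on a transcript, scaled to its length and to the mapped reads of the library), and every value below is such a group value. Neither the spread over animals nor the depth behind a value is known, so no difference could be set against replicate error. A gene is called higher or lower here when its group values differed at least 2-fold. Ratios are given as log2 of SCI over No-SCI with no pseudocount added to the values as given. Over all entries 7.96% were higher and 12.1% were lower after SCI by the 2-fold rule. The lowest value was 1, and the methods do not say whether 1 had already been added to every value. Such an addition would make the ratios of low values smaller in size. At any size of difference, 7196 entries had a lower value after SCI and 5575 a higher one. The median log2 ratio was −0.12. Setting that median to 0 moves every log2 ratio up by 0.12. In this supernatant 2 of 6 listed neuron and axon markers were lower and none was higher, GFAP and AQP4 had no entry, and 4 of 5 listed oligodendrocyte markers were lower. Fewer cells or fragments of a type in a sample and less RNA in each cannot be told apart in such bulk values.

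Interferons are secreted when a cell senses foreign or misplaced nucleic acid. They act through paired receptors and JAK kinases on STAT proteins, and a complex that contains STAT2 and IRF9 binds a short DNA element, the interferon-stimulated response element, in front of its target genes. The targets include antiviral effectors, which block steps of viral replication, as well as the sensors and transcription factors that feed the response. Interferon gamma in addition raises the machinery that cuts proteins into peptides and presents them on class I and class II molecules. In the central nervous system microglia are a main source of both sets of transcripts, and endothelial and meningeal cells also respond to interferon.

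The antiviral effectors and the antigen presentation genes had different ratios between SCI and No-SCI. Of 26 listed effectors, 10 (38.5%) were lower after SCI and 3 (11.5%) were higher, beside the 12.1% and 7.96% of all entries. Of 9 sensors and transcription factors, 4 (44.4%) were lower and none was higher. Of 32 antigen presentation genes, 2 (6.25%) were lower and none was higher. The median log2 ratio was −0.66 for the effectors, −0.97 for the sensors and transcription factors and 0.20 for the antigen presentation genes, and relative to the median of all entries these were −0.55, −0.86 and 0.32. The medians of effectors and antigen presentation genes were thus 0.87 apart on the log2 scale. The spread within the effectors was wide, from −3.57 for IFIT1 to 3.52 for IFITM1, whereas the antigen presentation genes ran from −1.68 to 0.77.

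**Figure D1:**
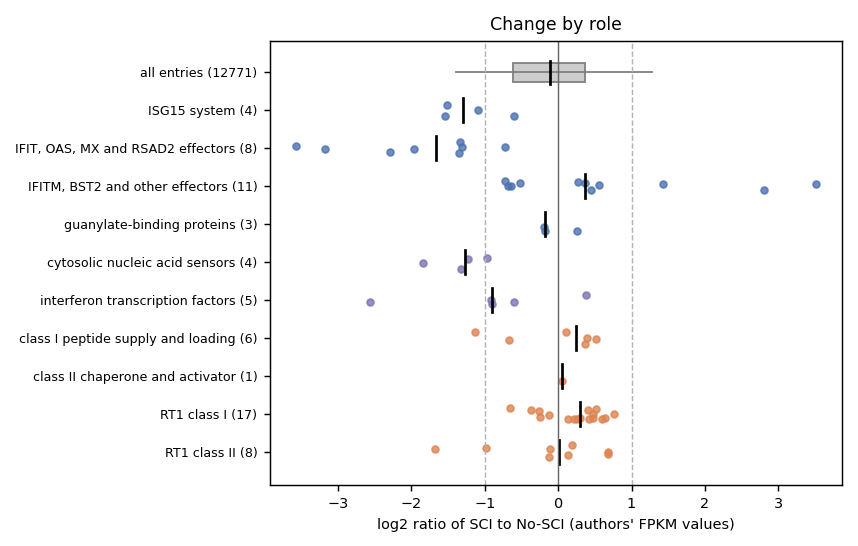
Log2 ratio of SCI to No-SCI for each listed member (points), by role, with the number of genes in brackets and the median as a black bar. The grey box spans the interquartile range of all 12771 entries with whiskers from the 5th to the 95th percentile, and dashed lines mark a 2-fold difference. The IFIT, OAS, MX and RSAD2 genes all sit below 0, the IFITM genes form the 3 rightmost points, and 30 of 32 antigen presentation genes lie between the dashed lines.

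The nearest members on either side of the 2-fold line were ISG15, which was 2.13-fold lower, and RT1-HB-PS1 and DHX58, at 1.97-fold and 1.96-fold lower. ISG15 is the 1 member whose call ends under another scaling, since its log2 ratio of −1.09 becomes −0.98 when the median of all entries is set to 0 and also passes under the line with equal upper quartiles. The sum of FPKM over the effectors went the other way from their median, from 2112 in No-SCI to 2756 after SCI. Without the IFITM genes that sum was 1789 in No-SCI and 1066 with SCI, and the median log2 ratio of the remaining 23 effectors was −0.72. IFI27, which was not called lower, alone made up 1120 and 700 FPKM of these sums.

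To show what the promoters of members with different responses hold, stretches around the response element are printed here for 7 of them, taken from RefSeq promoter windows of the GRCr8 assembly. The FPKM values were made on the rn6 assembly, and no coordinates were carried between these assemblies. Each stretch is written 5′ to 3′ on the strand of its gene, ends at or before the start of transcription, and has the match to GAAANNGAAA or to its reverse complement in capitals. RSAD2 (minus strand, chr6:48788233-48788292), IRF7 (minus strand, chr1:205800058-205800117) and IFIT3 (plus strand, chr1:241527257-241527316) were lower after SCI. IFITM2 (minus strand, chr1:205482349-205482406) and IFITM3 (minus strand, chr1:205541768-205541827) were higher. B2M (plus strand, chr3:129549155-129549214) and PSMB10 (minus strand, chr19:50743331-50743390) differed by less than 2-fold.
RSAD2: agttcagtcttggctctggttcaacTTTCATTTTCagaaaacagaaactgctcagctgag
IRF7: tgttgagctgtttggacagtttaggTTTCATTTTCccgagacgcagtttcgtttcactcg
IFIT3: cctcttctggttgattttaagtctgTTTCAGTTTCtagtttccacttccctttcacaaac
IFITM2: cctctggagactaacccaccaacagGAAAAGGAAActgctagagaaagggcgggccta
IFITM3: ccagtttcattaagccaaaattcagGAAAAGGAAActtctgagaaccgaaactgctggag
B2M: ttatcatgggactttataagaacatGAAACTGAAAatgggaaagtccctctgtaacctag
PSMB10: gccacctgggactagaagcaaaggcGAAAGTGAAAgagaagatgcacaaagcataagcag

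Among these 7, RSAD2 and IRF7 share the same 10 letters in capitals and were both lower, and IFITM2 and IFITM3 share another 10 letters and were both higher. These letters did not go with a single direction over all members. Those of IFITM2 and IFITM3 also stand in the window of IFI27, with a log2 ratio of −0.68. Those of RSAD2 and IRF7 stand on the other strand in the windows of IFI44L and TAPBP, with log2 ratios of 0.55 and −1.13. The matches began 147 bases before the start in RSAD2, 69 in IRF7, 44 in IFIT3 and IFITM3, 33 in IFITM2, 150 in B2M and 73 in PSMB10.

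At the head of the pathway, the 5 ligand genes looked up, IFNB1, IFNG, IFNK, IFNE and IFNL3, had no entry, nor did the receptor chain IFNLR1. The receptor chains for type I interferon, IFNAR1 and IFNAR2, were listed at 25.9 and 12.9 FPKM in No-SCI and at 16.8 and 9.32 with SCI. For interferon gamma the chains IFNGR1 and IFNGR2 were at 41.5 and 7.5 FPKM in No-SCI and at 38.6 and 5.78 with SCI. IL10RB, shared by several cytokine receptors, was at 18.2 and 14.1 FPKM. All 5 listed receptor chains had a lower value after SCI, as did 7196 of all 12771 entries. Their log2 ratios ran from −0.63 to −0.11, and none differed 2-fold. The ratio of IFNGR1, −0.11, is close to the median of all entries.

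Downstream of the receptors, 12 of 13 listed signalling genes differed by less than 2-fold, as did 10216 of all 12771 entries. The exception was SOCS1, a feedback inhibitor of JAK signalling, at 1.37 FPKM in No-SCI and 4.06 with SCI, a log2 ratio of 1.57. Its No-SCI value is close to 1, the minimum over all entries.

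All 4 sensors of foreign nucleic acid had lower values after SCI, and 3 of them (75%) were called lower, beside 12.1% of all entries. DDX58, or RIG-I, which recognises RNA with a 5′ triphosphate, was at 6.48 FPKM in No-SCI and 1.80 with SCI, a log2 ratio of −1.85. IFIH1, or MDA5, which binds long double-stranded RNA, was at 7.72 and 3.31 FPKM, and ZBP1, which binds nucleic acid in the Z form, at 8.63 and 3.46 FPKM. DHX58, or LGP2, which modulates the other RNA helicases, was at 14.7 and 7.49 FPKM, just short of the 2-fold line. Their log2 ratios therefore lay within a narrow band, from −1.85 to −0.97, although none of the 4 was above 15 FPKM in either group. Of 9 further genes of nucleic acid sensing, TLR3, the endosomal receptor for double-stranded RNA, was lower (19.6 against 6.15 FPKM), as was the DNA sensor AIM2 (7.97 against 3.35 FPKM), and the other 7 differed by less than 2-fold.

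IRF7, the factor that amplifies type I interferon production, stood apart among the transcription factors. Its value was 216 FPKM in No-SCI and 36.6 FPKM with SCI, 5.91-fold lower, and its log2 ratio of −2.56 was the 51st lowest of all 12771 entries. STAT2 and IRF9, parts of the complex that binds the response element, were at 10.1 and 120.3 FPKM in No-SCI and at 5.37 and 79.2 with SCI, with log2 ratios of −0.91 and −0.60. IRF8, a factor of myeloid cells and microglia, was at 59.8 and 31.9 FPKM, a log2 ratio of −0.91. IRF1, which is induced by interferon gamma and acts on antigen presentation genes, had the only ratio above 1 of the 5, with 22.04 FPKM in No-SCI and 28.7 with SCI.

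Every listed member of the IFIT, OAS, MX and RSAD2 set had a lower value after SCI. Of these 8, 7 (87.5%) were called lower, beside 12.1% of all entries. IFIT1, which binds viral RNA lacking the host cap methylation, was at 16.5 FPKM in No-SCI and 1.38 with SCI. This was 11.9-fold lower, a log2 ratio of −3.57 and the 8th lowest in the table. RSAD2, or viperin, which makes a chain-terminating nucleotide, was at 12.7 FPKM and 1.41 FPKM, 9.05-fold lower and the 15th lowest. Both SCI values lie near 1, below which no entry goes. With 1 subtracted from every value the log2 ratios were −5.33 for IFIT1 and −4.85 for RSAD2. With a pseudocount of 1 they were −2.87 and −2.51, so the size of both falls depends on the treatment of low values.

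MX2 and MX1 are dynamin-like GTPases that block viruses at an early step, and both were well above the lowest values. MX2 was at 129 FPKM in No-SCI and 26.3 FPKM with SCI, 4.90-fold lower. MX1 was at 60.3 FPKM and 23.8 FPKM, 2.53-fold lower. The related IFIT3 and IFIT2 were at 27.8 and 10.9 FPKM in No-SCI and at 10.9 and 4.38 with SCI, 2.56-fold and 2.48-fold lower, much less than IFIT1. OASL was at 8.45 and 2.16 FPKM, 3.91-fold lower. OAS1A, which makes the 2′-5′ oligoadenylates that switch on RNase L, was at 15.4 and 9.34 FPKM, a log2 ratio of −0.72 that did not reach 2-fold. OAS1 genes form a cluster of near copies in the rat, and how their shared reads were divided cannot be seen from the table.

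The 4 listed genes of the ISG15 system had values between 5.30 and 32.1 FPKM in No-SCI, and all were lower in value after SCI. ISG15, a protein that is joined to other proteins as ubiquitin is, was at 32.1 FPKM in No-SCI and 15.1 with SCI. USP18, the enzyme that takes ISG15 off again and dampens the type I receptor, was at 15.0 and 5.17 FPKM, 2.91-fold lower. HERC6, a ligase for ISG15 in rodents, was at 5.30 and 1.85 FPKM, 2.86-fold lower. UBA7, the enzyme that activates ISG15, was at 16.7 and 11.0 FPKM and did not reach 2-fold. Carrier, remover and ligase thus had log2 ratios from −1.54 to −1.09, against −0.61 for the activating enzyme.

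**Figure D2:**
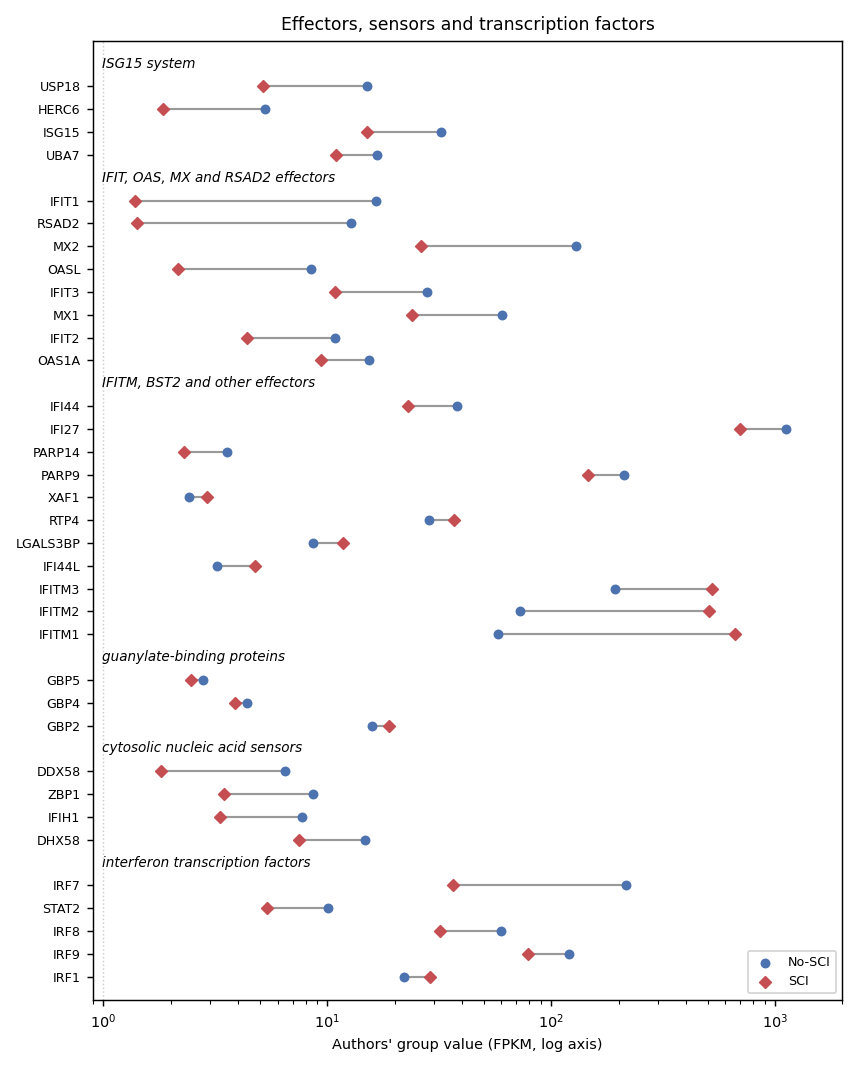
FPKM on a log axis for each listed effector, sensor and transcription factor in No-SCI (blue circles) and SCI (red diamonds), 1 group value each, sorted by ratio within each role. IFIT1 and RSAD2 end near the dotted line at 1 after SCI, IRF7 and MX2 move from above 100 to below 40 FPKM, and the 3 IFITM genes converge between 506 and 662 FPKM.

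The IFITM genes moved in the opposite direction. They encode small membrane proteins that hinder the fusion of virus with the cell. IFITM1 was at 57.7 FPKM in No-SCI and 662 FPKM with SCI, 11.5-fold higher, and its log2 ratio of 3.52 was the 29th highest in the table. IFITM2 was at 72.4 and 506 FPKM, 6.99-fold higher. IFITM3 was at 193 and 521 FPKM, 2.70-fold higher. The 3 genes differed more than 3-fold among themselves in No-SCI and lay close together with SCI, there all above percentile 96.9 of all entries. They are neighbouring and similar genes, so reads shared between them can shift their separate values, and their sum was 323 FPKM in No-SCI and 1690 FPKM with SCI.

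Some markers of other cells also had higher values after SCI. Of 9 listed meningeal fibroblast markers 8 (88.9%) were higher, beside 7.96% of all entries, and none was lower. Their median log2 ratio was 2.31, and their summed level was 66.5 FPKM in No-SCI and 815 FPKM with SCI. This list was chosen with earlier results of these data known. It holds OSR1, CRABP2 and ALDH1A2, with the 2nd, 6th and 22nd highest ratios of all entries, so its count and sum are descriptions only. Of 8 listed monocyte and neutrophil markers 6 (75%) were higher, with a median log2 ratio of 1.42. CSF3R and LCN2 had lower values after SCI that did not reach 2-fold, with log2 ratios of −0.93 and −0.85. CXCR2, called higher, was at 1.02 FPKM in No-SCI, close to the minimum over all entries. The summed level was 336 and 877 FPKM, of which LYZ2 alone made up 201 and 611 FPKM. CCR2, MPO and ELANE had no entry. For 6 listed endothelial markers the median was −0.07 and the sum 28.2 and 33.7 FPKM, with CDH5 alone called higher and PECAM1 and TEK without an entry. The part of these cells in the IFITM values was not tested.

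The effectors that were lower can be set beside the microglia and macrophage markers, whose ratios lay on both sides of 1. Of 13 such markers, all listed, 3 (23.1%) were lower and 2 (15.4%) were higher, beside 12.1% and 7.96% of all entries. Their median log2 ratio was −0.05, and their summed level was 1252 FPKM in No-SCI and 1423 FPKM with SCI. CD68 and C1QC were 2.69-fold and 2.23-fold higher, CX3CR1 and CSF1R were 2.38-fold and 2.25-fold lower, and AIF1, the most abundant, was at 477 and 417 FPKM. The third lower marker, P2RY12, had a log2 ratio of −1.001 that becomes −0.88 when the median of all entries is set to 0. All 3 listed astrocyte markers and 4 of 5 listed oligodendrocyte markers were lower as well, with median log2 ratios of −1.42 and −1.62. Their summed levels were 134 and 51842 FPKM in No-SCI against 54.2 and 29845 FPKM after SCI. MOBP, the oligodendrocyte marker not called lower, made up 44200 and 27648 FPKM of the oligodendrocyte sums. Whether the cells that carried the effector transcripts were the same as the cells of these marker lists was not tested.

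**Figure D3:**
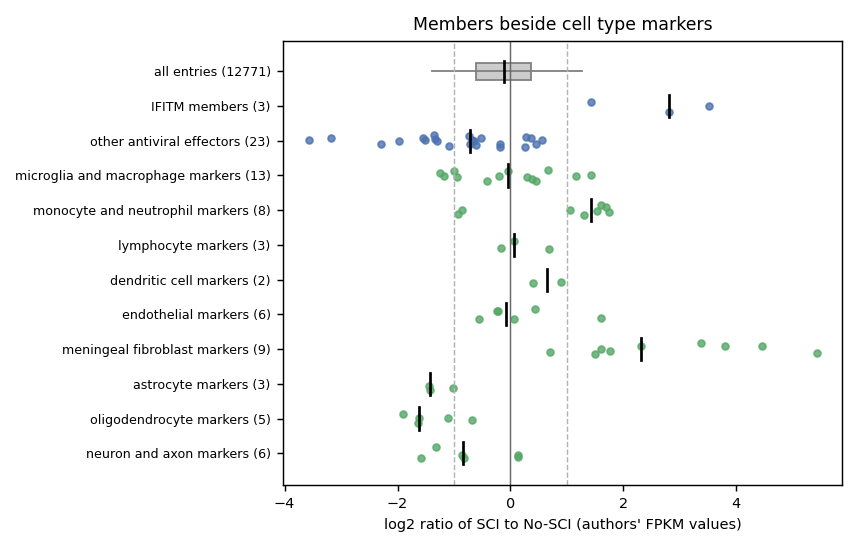
Log2 ratio of SCI to No-SCI for the IFITM members and the other effectors (blue) beside marker genes of cell types (green), with numbers of listed genes in brackets, medians as black bars and all entries as a grey box with whiskers from the 5th to the 95th percentile. All 3 IFITM genes lie in the range of the meningeal fibroblast markers, IFITM1 and IFITM2 lie above the highest monocyte and neutrophil marker at 1.75, and the other effectors spread from −3.57 to 0.55.

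The remaining effectors differed by less than 2-fold in both directions. IFI27, the most abundant member of all, was at 1120.2 FPKM in No-SCI and 700.1 FPKM with SCI, a log2 ratio of −0.68. PARP9 and PARP14, which belong to the ADP-ribosyltransferase family, had log2 ratios of −0.52 and −0.65, and IFI44 one of −0.73. RTP4, LGALS3BP, XAF1 and IFI44L had log2 ratios from 0.27 for XAF1 to 0.55 for IFI44L, and of these only RTP4 exceeded 12 FPKM. The guanylate-binding proteins are GTPases that attack the vacuoles of intracellular microbes and respond strongly to interferon gamma. GBP2 was at 15.9 and 19.0 FPKM, GBP4 at 4.38 and 3.87 FPKM and GBP5 at 2.79 and 2.45 FPKM, and their log2 ratios lay between −0.19 and 0.25.

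In antigen presentation, the supply of peptides to class I molecules was little different between the groups. PSMB8, PSMB9 and PSMB10 are the catalytic subunits that turn the proteasome into the immunoproteasome. They were at 57.7, 32.2 and 15.6 FPKM in No-SCI and at 74.5, 34.8 and 22.2 FPKM with SCI, with log2 ratios of 0.37, 0.11 and 0.51. The constitutive subunits that they replace, PSMB5, PSMB6 and PSMB7, had log2 ratios of 0.44, 0.46 and −0.14. The FPKM ratio of PSMB8 to PSMB5 was 0.205 in No-SCI and 0.196 with SCI, that of PSMB9 to PSMB6 was 1.01 and 0.792, and that of PSMB10 to PSMB7 was 0.413 and 0.648. The 3 pairs therefore did not shift in a common direction.

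TAP1, which carries peptides into the endoplasmic reticulum, was near the lowest value in both groups, at 1.42 FPKM in No-SCI and 1.87 FPKM with SCI. TAPBP, or tapasin, which bridges this transporter to class I molecules, was the only member of peptide supply and loading called lower, at 12.6 FPKM and 5.77 FPKM, 2.19-fold lower. B2M, the light chain of all class I molecules, was the second most abundant member in No-SCI, at 383 FPKM, and was at 240.0 FPKM after SCI, a log2 ratio of −0.68. Tapasin and the light chain thus had ratios on the side of the effectors, whereas the immunoproteasome subunits and TAP1 had ratios above 1.

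The heavy chains of class I had ratios on both sides of 1. Of 17 listed RT1 class I genes, 12 had a higher and 5 a lower value after SCI, and none differed 2-fold. Over all entries 5575 had a higher and 7196 a lower value. The classical genes RT1-A1 and RT1-A2 were at 72.4 and 124 FPKM in No-SCI and at 66.5 and 103.7 FPKM with SCI. The most abundant class I gene was RT1-CE5, at 259 FPKM and 370.4 FPKM, followed by RT1-CE4 at 151 and 209 FPKM, with log2 ratios of 0.51 and 0.47. The lowest class I ratio was that of RT1-S3, at 20.4 and 12.9 FPKM, a log2 ratio of −0.66 close to that of B2M. All 6 listed RT1-CE genes had a ratio above 1, from 0.14 for RT1-CE7 to 0.77 for RT1-CE3 on the log2 scale. The summed level of the class I genes was 775 FPKM in No-SCI and 963 FPKM with SCI, and their median log2 ratio was 0.30, or 0.42 relative to all entries. RT1 genes are near copies of one another and vary between rat strains, so reads can be split between them or lost, and each separate value is uncertain.

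The 8 RT1 class II genes had lower levels and a median log2 ratio of 0.01. They include RT1-HB-PS1, whose symbol marks a pseudogene, at 3.68 FPKM in No-SCI and 1.87 with SCI, a log2 ratio of −0.98. Without it the median would be the ratio of RT1-DMA, 0.14. CD74, the invariant chain that guides class II molecules to the endosome, was at 29.8 FPKM in No-SCI and 31.0 FPKM with SCI. The classical chains RT1-BA, RT1-BB, RT1-DA and RT1-DB1 were at 3.22, 6.13, 10.7 and 7.31 FPKM in No-SCI and at 5.17, 5.66, 12.2 and 11.7 FPKM after SCI. The log2 ratio of RT1-BB, −0.11, becomes 0.00241 when the median of all entries is set to 0, and the other 3 lay above 0 either way. RT1-DMA and RT1-DMB, which form the peptide editor of class II, were at 34.1 and 26.3 FPKM in No-SCI and at 37.5 and 23.98 FPKM with SCI. RT1-DOA, a chain of the protein that restrains this editor, was the class II gene called lower, at 3.67 FPKM and 1.15 FPKM, a log2 ratio of −1.68 with an SCI value close to 1. Of the lymphocyte and dendritic cell markers 3 of 11 and 2 of 7 were listed, and CD3D, FLT3 and XCR1 had no entry. The listed ones had summed levels of 9.10 and 7.65 FPKM in No-SCI and 11.3 and 11.7 FPKM with SCI. A missing entry does not show a low level. Among oligodendrocyte markers MBP had no entry either, while MOBP was at 44200 FPKM in No-SCI.

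**Figure D4:**
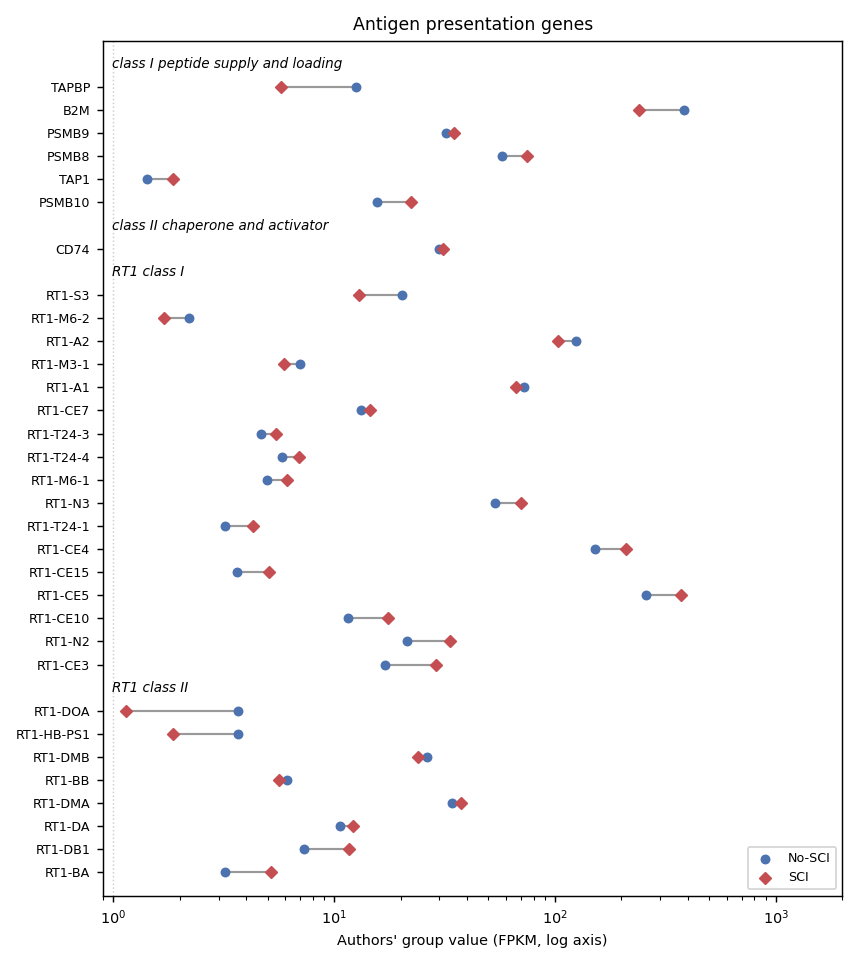
FPKM on a log axis for each listed antigen presentation gene in No-SCI (blue circles) and SCI (red diamonds), 1 group value each, sorted by ratio within each role. The symbols lie close together for most genes, and TAPBP and RT1-DOA show the 2 differences of at least 2-fold.

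Other genes of the same pathways were taken from lists outside the members. Over the 70 listed genes of these lists, 12 (17.1%) were lower and 2 (2.86%) were higher, beside 12.1% and 7.96% of all entries. Among 25 listed interferon-induced genes, 7 (28.0%) were lower and none was higher. CMPK2, which lies beside RSAD2 in the genome and supplies it with nucleotides, was at 36.2 FPKM in No-SCI and 5.70 FPKM with SCI, 6.35-fold lower. CXCL10, a chemokine induced by interferon, was at 12.2 and 2.87 FPKM, 4.24-fold lower. EIF2AK2, the kinase that halts translation on double-stranded RNA, was 2.54-fold lower, OAS1B 2.67-fold, TRIM34 2.69-fold and SAMHD1 2.20-fold. ADAR, the editing enzyme whose interferon-induced form acts on double-stranded RNA, was at 27.0 and 8.38 FPKM, 3.22-fold lower.

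Among 15 other listed antigen presentation genes, 3 were lower and 1 was higher, or 20% and 6.67% beside the same 12.1% and 7.96% of all entries. CANX, or calnexin, which holds new class I heavy chains, was at 126 FPKM in No-SCI and 52.9 FPKM with SCI. RFX5 and RFXAP are parts of the factor that binds the promoters of class II genes, and they differed in direction, with 21.8 and 8.81 FPKM for RFX5 and 7.85 and 17.1 FPKM for RFXAP. CD86, a costimulatory ligand on antigen presenting cells, was at 9.34 and 4.40 FPKM. IFI30 and FCGRT were under 2-fold with log2 ratios of 0.74 and 0.72.

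RefSeq promoter windows, from 250 bases before the start to 50 after it, were at hand for 56 of the 72 members looked for. The response element GAAANNGAAA, searched on both strands, was in 25 of these (44.6%), compared with 3.92% of all 33469 windows. It was in 15 of 20 effectors, in 2 of 6 sensors and transcription factors, in 6 of 8 antigen presentation genes outside the RT1 family and in 2 of 22 RT1 genes. The gamma-activated site TTCNNNGAA, which reads the same on both strands, was in 10 members (17.9%) and in 8.87% of all windows. A match of the first motif overlapped a match of the other in 1 member window, and overlapped a further match of its own kind in 3.

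The presence of these letters did not go with one direction. Of the 23 listed members with a response element, 5 were lower, 2 were higher and 16 differed by less than 2-fold. Over all entries 12.1% were lower and 7.96% higher. The median log2 ratio of these 23 members was −0.19. Within the effectors, sensors and transcription factors the median was −0.42 for the 16 with a match and −0.91 for the 9 without one. Among the members that were lower, HERC6, OASL, MX1 and RT1-DOA had a window without a match. No window was at hand for ISG15, USP18, IFIT1, IFIT2, MX2, IFITM1, RTP4, DDX58, DHX58, ZBP1, RT1-CE7, RT1-DMB or RT1-HB-PS1 among listed members.

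**Figure D5:**
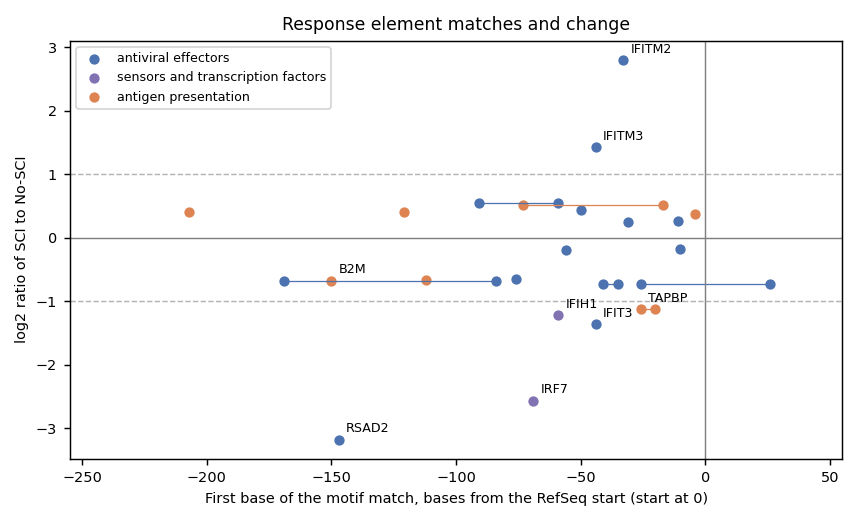
Position of each response element match, in bases from the RefSeq start of its gene, against the SCI to No-SCI log2 ratio of the listed members with a match. Lines join matches of the same gene, dashed lines mark a 2-fold difference, and names are given for members past it and for B2M. Matches from IFITM2 at the top to RSAD2 at the bottom lie mostly within the last 100 bases before the start.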

How the data were processed

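Stranded total RNA libraries were made from the acellular supernatant of spinal cord once ribosomal RNA had been removed. Per the labels and methods, reads were downsampled to the smallest library, aligned to rn6 with STAR 2.5.4b and compared with Cuffdiff 1.3.0 with upper quartile normalization. The authors deposited FPKM as a single value per group, for 12771 entries, with none below 1. The table also holds the authors' own comparison (p-value, q-value, significance, fold change and log2 fold change), and these columns were not used. By the labels the No-SCI group has 2 libraries and the SCI group 1, and by the methods each condition had 2 animals. Replicates, counts and depth are not in the table, so no interval or test was computed, and the number of libraries limits the precision.

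Log2 ratios of SCI to No-SCI, a 2-fold count rule, list medians and sums and percentiles among all entries were computed with Python 3.11.15, numpy 2.4.6 and pandas 2.3.3. Every member with an entry could be named, as could genes of the pathway and marker lists that differed 2-fold, the receptors and the most abundant markers. IFI30, FCGRT, PSMB5, PSMB6, PSMB7, CSF3R, LCN2 and the markers with no entry were named outside this rule, after their values were seen. Members and lists were chosen with earlier results of these data known. No member symbol was listed more than once. In 29 of 67 members a value had 7 significant digits, and where such a value is a sum over several transcripts its level depends on their number. Of the 67 symbols, 66 matched a RefSeq GRCr8 symbol and 1 (DDX58) a synonym. Promoter letters came from RefSeq GRCr8. As a check of the ratio and count steps alone, 200 No-SCI values were raised or lowered exactly 3-fold without noise, and all 200 were counted. That outcome follows from arithmetic and gives no rate of detection. The alternatives were pseudocounts of 1 and 0.1, 3 scalings, minimum means of 2 and 5 FPKM, folds of 1.3 and 3, summed duplicate entries, 1 subtracted from every value, list means and leaving out RT1 genes.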

Additional observations from a re-analysis of the deposited data

How the results depend on the processing

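The effectors kept a negative median log2 ratio and the antigen presentation genes a positive one under every alternative tried. Setting the median of all entries to 0 gave −0.55 for the effectors, −0.86 for the sensors and transcription factors and 0.32 for antigen presentation, and equal upper quartiles gave −0.56, −0.87 and 0.31. List means gave −0.53 for the effectors, 0.062 for antigen presentation and a difference of −0.59. With 1 subtracted from every value the sensors and transcription factors were at −1.08, and 1 antigen presentation gene, TAP1, passed 2-fold upward. A minimum mean of 5 FPKM left 1 antigen presentation gene lower. At a fold of 1.3, 16 effectors were lower and 5 higher, 5 antigen presentation genes were lower and 12 higher, and of all entries 4565 were lower and 3148 higher. At a fold of 3, 4 effectors were lower and 2 higher, 1 antigen presentation gene was lower, and of all entries 417 were lower and 405 higher. Among the 67 members singly, no called member changed direction under 2 pseudocounts, 3 scalings or the subtraction of 1. That outcome was fixed by arithmetic and is no support for the calls. Adding or subtracting the same number leaves the order of 2 values unchanged, and the scalings moved log2 ratios by at most 0.12. The subtraction moved 5 more past 2-fold (DHX58, PARP14, RT1-HB-PS1, STAT2 and TAP1). The pseudocounts and the same total changed no call. No paired analysis was possible because the table has 1 value per group, and for the same reason no library could be left out.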

Other observations

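Relatives of the members that the lists leave out were chosen after their values were seen. IFITM7 and IFITM6 were listed at 6.75 and 1.25 FPKM in No-SCI and at 15.7 and 4.01 FPKM after SCI, with log2 ratios of 1.22 and 1.68, and IFITM5 at 1.41 and 1.67 FPKM. IFI27L2B, beside IFI27, was at 184 and 104.5 FPKM, a log2 ratio of −0.81. In the OAS family OASL2 had a log2 ratio of −0.64 and OAS1G and OAS1I ratios of −0.0034 and −0.02. OAS1F and OAS1K are listed with identical values in both groups, 15.5 FPKM in No-SCI and 5.99 with SCI, so they are not separate measurements. OAS1B, at 20.4 and 7.65 FPKM, may not be separate from them either. With 1 subtracted from every value, its log2 ratio was the same as theirs, −1.54454. IFIT1BL, a relative of IFIT1, was at 4.43 and 4.96 FPKM, a log2 ratio of 0.16.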
